A study of Mus musculus with 6 samples.

Results

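The genes of the *Atf4* stress response, together with *Trib3*, were examined in the liver of pups with (hSRY-ON) and without (hSRY-OFF) an activated human *SRY* transgene. These are *Atf4*, *Atf3*, *Atf5*, *Ddit3*, *Trib3*, *Asns*, *Sesn2*, *Psat1*, *Phgdh* and *Ppp1r15a*, 10 genes among 18138 symbols of the array table. The rule takes genes by name and uses no measured value, although the names were picked with earlier results of these data known. Every probe carrying one of these symbols was taken, which gave 16 probes for 9 genes, and *Ppp1r15a* was reached through its older name Myd116, so that 17 of the 25697 probes belong to the group. Of these, 12 probes for 9 genes were detected well enough to be tested, and the remaining 5 probes are described as values.

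Total RNA came from the livers of male FVB/N pups at postnatal day 6 and was hybridized to Illumina bead arrays, with 3 hSRY-ON and 3 hSRY-OFF livers on 1 array each. The responder transgene, Signalox-hSRY, was a single copy at the H11 locus of chromosome 11, and its CAG promoter drove a floxed DsRed2 ahead of FLAG-tagged human *SRY*, the Y-linked testis-determining gene, and EGFP. In hSRY-ON pups the block had been removed in the single-cell embryo by Cre carried over from the oocytes of Ddx4-Cre mothers, and the pups chosen for the arrays had not inherited Ddx4-Cre itself. In hSRY-OFF pups, per the methods, the cassette had not recombined, but the methods also call littermates that lack the cassette, and may carry Ddx4-Cre alone, controls, and the labels do not say which kind was used. The promoter is active throughout the body, so a change in the liver need not start in a liver cell. The study also reports that hSRY-ON pups hardly suckled, lacked milk in the stomach and grew more slowly. How well the pups used for the arrays had fed is not given, so feeding and genotype cannot be told apart here. All 6 arrays were alike in depth, with median deposited intensities of 147 to 165 and 10318 to 10762 detected probes, and correlations between arrays were 0.987 to 0.992 within hSRY-OFF, 0.965 to 0.982 within hSRY-ON and 0.912 to 0.939 between the groups. Nothing in the labels says whether the pups came from separate litters, so p-values measure the spread between these livers.

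The integrated stress response begins when a kinase that senses amino acid shortage, unfolded protein, viral RNA or lack of heme phosphorylates the initiation factor eIF2. General translation then falls while translation of the *Atf4* messenger rises, and the Atf4 protein, a bZIP transcription factor, turns on genes for amino acid synthesis and transport together with further regulators. Among the latter are the bZIP factors *Ddit3* (also called Chop), *Atf3* and *Atf5*, the phosphatase subunit *Ppp1r15a* (Gadd34), which returns eIF2 to its active state, and the pseudokinase *Trib3*, which binds Atf4 and Akt and acts as a brake. In the liver the pathway is known from fasting, protein restriction and secretory stress. Since Atf4 is controlled largely at translation, its RNA level is not its activity, and no protein was measured on these arrays.

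Atf4 binds with C/EBP partners to the C/EBP-ATF response element, whose core was searched as TGATGNAA on both strands in the RefSeq promoters of GRCm38.p6, from 250 bases before to 50 bases after each start site. All 10 genes matched, with 12 promoters in all. The core was found in 3 of the 12 promoters, those of *Asns*, *Atf3* and *Trib3*, against 3.97% of all 32851 promoters. The stretches that hold it, 150 bases before and 30 bases after the start, are shown 5′ to 3′ in the direction of the gene, with the core in capitals. They lie on the minus strand, at chr6:7693180-7693359 for *Asns*, chr1:191183304-191183483 for *Atf3* and chr2:152344031-152344210 for *Trib3*.
Asns: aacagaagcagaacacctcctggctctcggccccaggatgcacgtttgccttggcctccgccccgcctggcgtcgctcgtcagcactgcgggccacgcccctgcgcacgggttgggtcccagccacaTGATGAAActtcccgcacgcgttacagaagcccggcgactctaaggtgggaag
Atf3: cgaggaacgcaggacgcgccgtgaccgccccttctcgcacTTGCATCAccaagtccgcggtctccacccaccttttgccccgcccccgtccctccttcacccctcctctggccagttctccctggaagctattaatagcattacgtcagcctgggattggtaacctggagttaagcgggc
Trib3: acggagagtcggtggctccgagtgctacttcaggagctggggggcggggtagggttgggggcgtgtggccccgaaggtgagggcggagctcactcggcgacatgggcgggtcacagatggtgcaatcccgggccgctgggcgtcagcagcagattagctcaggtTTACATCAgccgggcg
The core reads forward in *Asns*, at position -23, and as its reverse complement in *Atf3*, at position -110, and in *Trib3*, at position 15. A match is a description of letters, and no match says only that these letters are not in this window. Counted by gene, the core was found in 3 of the 10 members (30%) and in 4.51% of all genes with a promoter. By the same count it was found in 14 of 36 further Atf4 target genes that had a promoter (38.9%), among them *Gars*, *Vldlr*, *Chac1* and *Nupr1*. It was found in 1 of 23 endoplasmic reticulum chaperone genes (4.35%), namely *Herpud1*, which stands on both lists. The endoplasmic reticulum stress element is a longer motif that is read by the Atf6 arm of the unfolded protein response. It was found in none of the 10 member genes, in 9 of the 23 chaperone genes (39.1%) and in 0.137% of all genes with a promoter.

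Most of the stress response genes were higher in hSRY-ON livers, led by *Trib3*. In the table of all probes, 15.8% of 10734 tested probes were higher in hSRY-ON and 17.3% were lower at an adjusted p under 0.05 (limma). Of the 12 member probes, 9 were higher, representing *Trib3*, *Ppp1r15a*, *Psat1*, *Ddit3*, *Asns* and *Atf4*, and 0 were lower, where 1 member probe, that of *Atf5*, had an unadjusted p under 0.05 in that direction. The remaining 3 probes, of *Atf5*, *Phgdh* and *Sesn2*, did not pass. The hSRY-ON values lay wholly above the hSRY-OFF values at the same 9 probes and wholly below them at 2, against 25.4% and 24.6% of all tested probes. The median difference of the 12 probes was 1.20 on the log2 scale, as compared to 0.02 over all tested probes. One of the 12, a *Trib3* probe, was detected in no hSRY-OFF liver and so entered the test only through the hSRY-ON arrays, where it was high. Among the 9 member probes detected on all 6 arrays, a subset taken after the data were seen, 7 were higher, for the same 6 genes, with a median of 1.06, where 15.5% of all 9206 such probes were higher. Whole livers were measured, so that fewer cells of a type and less RNA per cell cannot be told apart.

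**Figure D1:**
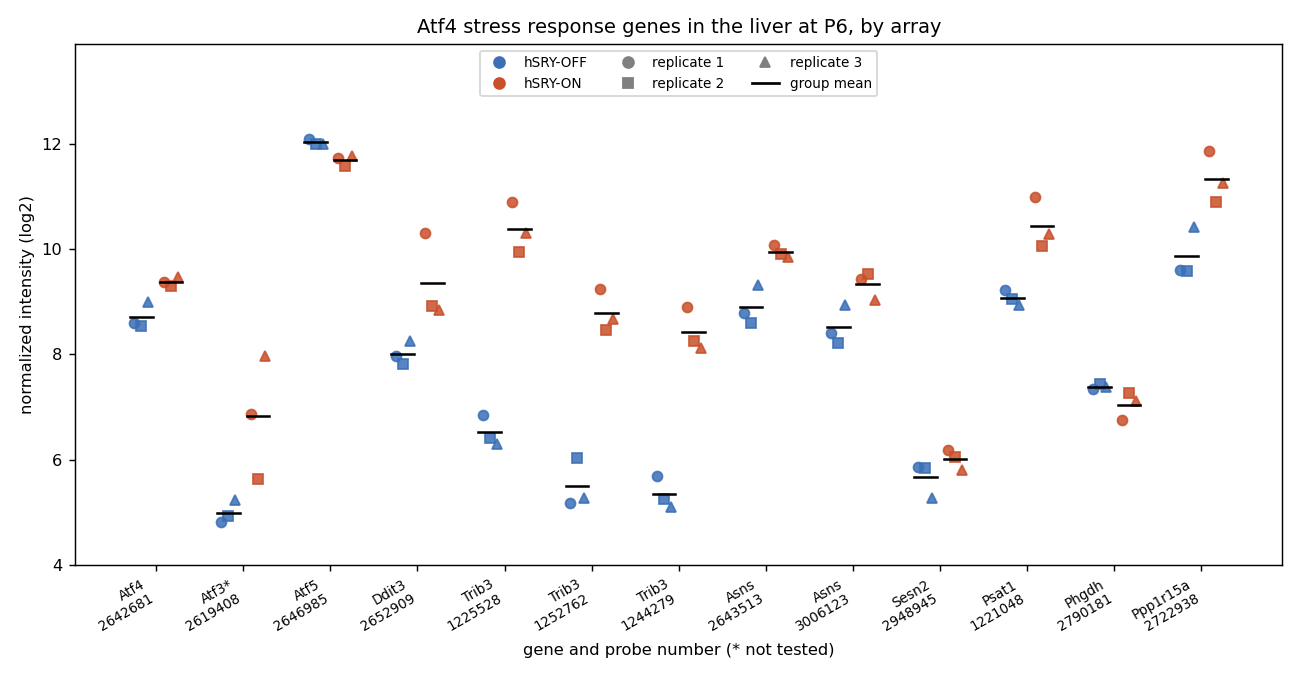
Normalized intensity (log2, vertical axis) of each member probe detected on at least 2 arrays, in the 3 hSRY-OFF (blue) and 3 hSRY-ON (orange) livers. Symbols mark the replicate and bars the group mean. The 3 Trib3 probes show the widest gaps between groups among the 12 tested probes, and Atf5 and Phgdh lie lower in hSRY-ON without passing the test.

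*Atf4* itself, the central factor, was modestly higher. The normalized levels of its detected probe (ILMN_2642681) were 8.59, 8.55 and 9.004 in hSRY-OFF livers and 9.37, 9.30 and 9.47 in hSRY-ON livers, all on the log2 scale. The 3 hSRY-ON values were close together and all lay above the highest hSRY-OFF value, that of replicate 3. The difference was 0.66 ± 0.15 (SE, n = 3 per group), a 1.58-fold rise, with an adjusted p of 0.0158 by limma. It no longer passed without hSRY-OFF replicate 1 (adjusted p = 0.0688) or without hSRY-OFF replicate 2 (adjusted p = 0.0646). A further *Atf4* probe (ILMN_1223734) was detected on no array and says nothing of its level.

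Among the partner bZIP factors, *Ddit3*, a factor associated with apoptosis under prolonged stress, was higher and varied among the hSRY-ON livers. Its tested probe (ILMN_2652909) read 7.96, 7.81 and 8.26 in hSRY-OFF and 10.31, 8.93 and 8.85 in hSRY-ON. No values overlapped, but hSRY-ON replicate 1 stood well above the other two. The difference was 1.35 ± 0.38 (adjusted p = 0.0309), and 0.87 without hSRY-ON replicate 1, when it still passed (adjusted p = 0.0171). The call was lost without each of the hSRY-OFF replicates in turn (adjusted p = 0.0951, 0.101 and 0.058) and when all probes were tested without a detection filter (adjusted p = 0.0703). The other *Ddit3* probe (ILMN_2927373) was detected on 1 array, that of an hSRY-ON liver, and was not tested.

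*Atf3*, an early-induced factor, was detected only in 2 of the 3 hSRY-ON livers. Its probe (ILMN_2619408) was not well above background on any hSRY-OFF array, where it read 4.81, 4.93 and 5.24, and read 6.86, 5.64 and 7.98 in hSRY-ON, where replicates 1 and 3 detected it and replicate 2 did not. The level was highest in hSRY-ON replicate 3, whereas *Trib3* and *Ddit3* were highest in replicate 1. The hSRY-ON mean was at least 2.12-fold higher than the detection floor of the hSRY-OFF arrays, a bound that takes all 3 hSRY-ON arrays at their measured value. With detection on fewer than 3 arrays it was not tested; with a looser detection p of 0.05 it was higher (adjusted p = 0.0323), and with no filter it did not pass (adjusted p = 0.0737).

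*Atf5*, a factor that is translated much as *Atf4* is and is abundant in the liver, gave lower values in hSRY-ON livers. Its probe (ILMN_2646985) read 12.10, 12.0004 and 11.997 in hSRY-OFF and 11.74, 11.59 and 11.78 in hSRY-ON. All hSRY-ON livers lay below all hSRY-OFF livers, within a narrow range. The difference was -0.33 ± 0.12, with a 95% interval of -0.60 to -0.06 and an adjusted p of 0.0634, which did not pass. It passed as lower under 6 of the 15 alternative settings, with adjusted p-values from 0.0221 to 0.0454, and had the same sign in all of them.

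*Trib3* changed the most of the members. Its brightest probe (ILMN_1225528) read 6.84, 6.41 and 6.30 in hSRY-OFF and 10.89, 9.94 and 10.30 in hSRY-ON. The difference was 3.86 ± 0.26, with a 95% interval of 3.25 to 4.47, equal to 14.5-fold (adjusted p = 0.000154). The spread within either group was a small part of the gap between them, and replicate 1 was the highest liver in both groups.

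The other *Trib3* probes moved the same way. One (ILMN_1252762) read 5.18, 6.03 and 5.27 in hSRY-OFF, where 1 of 3 arrays detected it, and 9.24, 8.46 and 8.66 in hSRY-ON, a difference of 3.30 ± 0.28 (adjusted p = 0.000351), or 2.95 with undetected arrays set to their detection floor. The last (ILMN_1244279) read 5.68, 5.25 and 5.11 in hSRY-OFF, where it was not well above background on any array, and 8.90, 8.25 and 8.13 in hSRY-ON. It was at least 6.44-fold higher (adjusted p = 0.000262). Having passed the detection filter through the hSRY-ON arrays alone, it adds no independent count. *Trib3* was called higher by all 3 probes under every alternative that could test them, but the size depended on the background correction. Without any background correction the differences were 2.75, 1.74 and 1.51 for the probes in the order given, and the fold of the brightest probe was then 6.71.

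*Ppp1r15a*, which reverses the phosphorylation of eIF2, was higher as well. Its probe (ILMN_2722938, listed as Myd116) read 9.61, 9.59 and 10.42 in hSRY-OFF and 11.86, 10.90 and 11.25 in hSRY-ON. All hSRY-ON livers exceeded the highest control, hSRY-OFF replicate 3. That liver was also highest among controls for *Atf4*, *Ddit3* and both tested *Asns* probes. It was the lowest control for the brightest *Trib3* probe, *Psat1*, *Atf5* and the tested *Sesn2* probe. For *Ppp1r15a* the difference was 1.47 ± 0.31, equal to 2.77-fold (adjusted p = 0.0109), and with hSRY-OFF replicate 1 left out it just failed (adjusted p = 0.0504).

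Of the amino acid enzymes, *Asns*, which makes asparagine from aspartate, and *Psat1*, the transaminase of serine synthesis, were higher. For *Asns* the first probe (ILMN_2643513) read 8.78, 8.59 and 9.31 in hSRY-OFF and 10.09, 9.91 and 9.85 in hSRY-ON, with a difference of 1.06 ± 0.20, equal to 2.08-fold (adjusted p = 0.00716). The second (ILMN_3006123) read 8.41, 8.21 and 8.94 in hSRY-OFF and 9.44, 9.53 and 9.02 in hSRY-ON, with a difference of 0.81 ± 0.22 (adjusted p = 0.0291). Both probes were free of overlap, although in the second hSRY-ON replicate 3 was within 0.1 of hSRY-OFF replicate 3. The first probe passed under all 15 alternatives, whereas the second was lost under 6, with adjusted p-values up to 0.103 when hSRY-OFF replicate 1 was left out. The last *Asns* probe (ILMN_2636755) was detected on no array.

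*Psat1* (ILMN_1221048) read 9.23, 9.05 and 8.93 in hSRY-OFF and 11.00, 10.07 and 10.28 in hSRY-ON. It was higher by 1.38 ± 0.24, equal to 2.60-fold (adjusted p = 0.00539), and passed under all 15 alternatives. *Phgdh*, the dehydrogenase that precedes *Psat1* in the same pathway, was not higher. Its probe (ILMN_2790181) read 7.33, 7.44 and 7.38 in hSRY-OFF and 6.75, 7.27 and 7.10 in hSRY-ON, so that all hSRY-ON livers lay below the controls. The difference of -0.34 ± 0.16 had a 95% interval of -0.71 to 0.02 and an adjusted p of 0.131, which did not pass.

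*Sesn2*, a sestrin that restrains the Tor pathway when leucine is short, was dim. Its detected probe (ILMN_2948945) read 5.86, 5.84 and 5.28 in hSRY-OFF, where 2 of 3 arrays detected it, and 6.18, 6.05 and 5.80 in hSRY-ON. The groups overlapped, with hSRY-ON replicate 3 below 2 of the controls. The difference was 0.35 ± 0.19, with a 95% interval of -0.11 to 0.80 (adjusted p = 0.209), so that a rise of up to 0.80 or no change both lie within the interval. A further *Sesn2* probe (ILMN_1219984) was detected on no array.

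The differences were unequal among the hSRY-ON livers. Replicate 1 was the highest hSRY-ON array at 7 of the 9 member probes called higher (77.8%), as compared to 37.6% of all 1700 probes called higher. These 7 include every *Trib3* probe, so they do not stand for separate genes. Its excess over the mean of the controls was 4.38 for the brightest *Trib3* probe, 2.30 for *Ddit3*, 1.99 for *Ppp1r15a* and 1.93 for *Psat1*, whereas replicate 2 gave 3.42, 0.91, 1.03 and 0.998 for the same probes. *Atf4* had a narrow range by the same measure, from 0.58 in replicate 2 to 0.75 in replicate 3. All 3 livers lay above every control at each of the 9 probes.

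**Figure D2:**
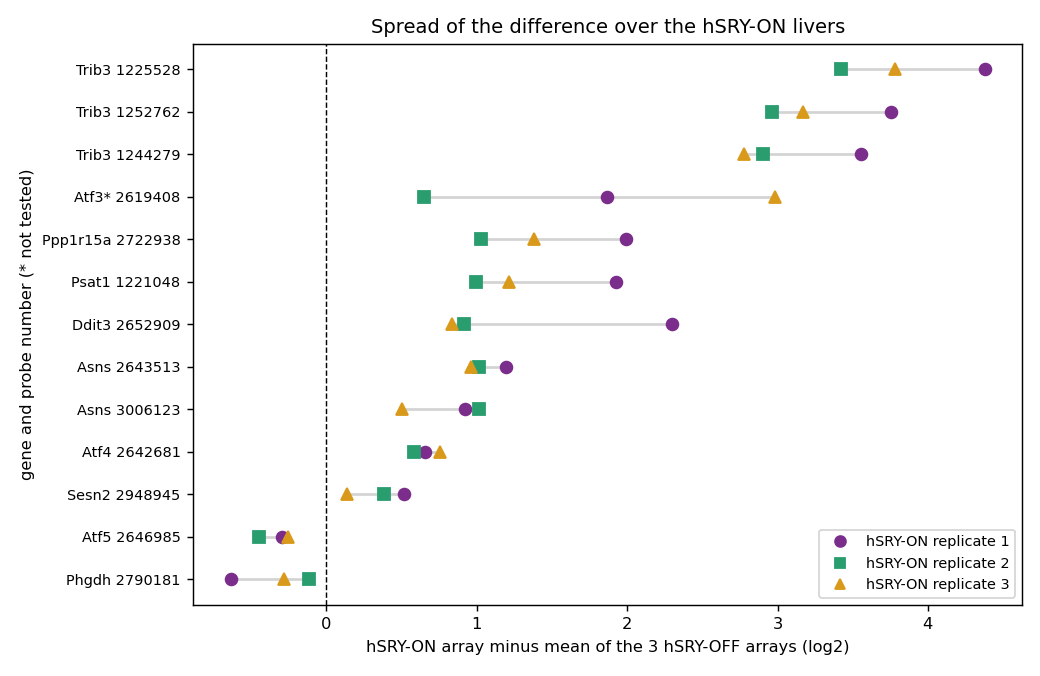
Difference of each hSRY-ON array from the mean of the 3 hSRY-OFF arrays (log2, horizontal axis) for the 12 tested member probes and Atf3, ordered by the group difference. Symbols mark the 3 hSRY-ON replicates and the dashed line marks no difference. Replicate 1 (circles) lies farthest right at 7 of the 9 probes called higher, and all 3 symbols lie left of the line for Atf5 and Phgdh.

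To describe the pattern of *Trib3*, the probes whose pattern over the 6 arrays was most like that of its brightest probe were listed by Pearson's r, as a description. Outside the members the closest were *Carm1*, *Smoc1*, *Vat1*, *Sfxn1* and *Cdipt*, all with r = 0.997 and with differences of 0.31, 1.19, 1.06, 0.40 and 0.48, of which that of *Carm1* did not pass (adjusted p = 0.0601). Such values were common, as 551 of 10721 probes (5.14%) reached an r of 0.95, and all of these points share the split into groups. Among the members r was 0.969 for *Psat1*, 0.905 and 0.804 for the *Asns* probes, 0.900 for *Ppp1r15a*, 0.881 for *Atf4*, 0.864 for *Ddit3*, 0.672 for *Sesn2*, -0.829 for *Phgdh* and -0.868 for *Atf5*.

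The genes around the members were then examined by 8 lists of 158 genes, 144 of them on the array. The lists were chosen with earlier results of these data known, and a gene with several tested probes counts at each of them. Upstream, the kinases and the eIF2 machinery had 3 of 15 tested probes higher (20%, near the 15.8% of all probes), 1 lower (6.67%, against 17.3%) and a median difference of 0.13. *Eif2ak1*, the heme-regulated kinase, was higher by 0.74 ± 0.17 (adjusted p = 0.0169), and *Eif2ak2*, the kinase that senses double-stranded RNA, was lower with a difference of -0.57 (adjusted p = 0.0401). The other probes called higher both belonged to *Eif2b5*, a subunit of the exchange factor that acts on eIF2. They gave 0.38 (adjusted p = 0.0362) and 0.34 (adjusted p = 0.0458), whereas a further *Eif2b5* probe gave 0.23 and did not pass (adjusted p = 0.144). *Eif2ak4*, the kinase of amino acid shortage, and *Eif2s1*, the eIF2 subunit that is phosphorylated, were detected on no array. *Eif2ak3*, the kinase that senses unfolded protein, had no probe found by its symbol, so its level is not known here. *Ppp1r15b*, the constitutive counterpart of *Ppp1r15a*, gave 0.27 (adjusted p = 0.205).

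Among partner bZIP factors, the other Tribbles genes and *Nupr1*, 3 of 11 tested probes were higher (27.3%) and 2 were lower (18.2%, near the 17.3% of all probes), with a median of 0.37. The *Nupr1* probe, which is among those called higher, is also counted with the other Atf4 target genes below. *Cebpb*, a C/EBP partner of Atf4, was higher by 1.39 ± 0.20 (adjusted p = 0.00266), whereas *Cebpa*, the main C/EBP factor of the mature hepatocyte, was lower with a difference of -1.66 ± 0.27 (adjusted p = 0.00392). *Nupr1*, a stress-induced chromatin protein, rose by 2.94 ± 0.69 (adjusted p = 0.0161), from 8.002, 8.22 and 7.95 in hSRY-OFF to 11.61, 9.20 and 12.20 in hSRY-ON, with replicate 2 far below the others. The repressor *Jdp2* was higher by 1.22 and *Batf3* was lower with a difference of -1.14 (adjusted p = 0.00504). *Trib2* gave 0.37 (adjusted p = 0.135), and *Trib1* was detected on no array.

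Of the other known Atf4 target genes, 21 of 42 tested probes were higher (50%, against 15.8% of all probes) and 1 was lower (2.38%, against 17.3%), with a median of 0.65. Lipoprotein receptor *Vldlr* was higher at 3 probes, by 1.56 to 1.65. *Eif4ebp1*, which holds back cap-dependent translation, was higher by 1.49, and the stress-responsive *Ndrg1* by 2.49 ± 0.35 (adjusted p = 0.00226). Of the tRNA synthetases, *Gars*, *Sars*, *Iars* and *Lars* were higher, whereas *Wars*, *Eprs*, *Aars*, *Nars* and *Mars1* did not pass. A *Sars* probe counted among the 21 was detected in no hSRY-OFF liver and so entered the test only through the hSRY-ON arrays, where it was high. The other *Sars* probe, detected on all 6 arrays, was higher by 1.08 (adjusted p = 0.00416). The probe called lower was *Slc1a4*, a neutral amino acid transporter, which gave -1.82 ± 0.27 (adjusted p = 0.00296). *Chac1*, a glutathione-degrading enzyme induced by Atf4, resembled *Atf3* in its detection. It was not well above background on any hSRY-OFF array and read 8.09, 5.15 and 6.30 in hSRY-ON. With detection on only 2 arrays, hSRY-ON replicates 1 and 3, it was not tested. The hSRY-ON mean was at least 1.71-fold higher than the detection floor of the hSRY-OFF arrays. That bound takes the undetected replicate 2 at its measured value and is led by replicate 1. The cystine transporter *Slc7a11* was detected on no array.

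Some targets differed widely among the hSRY-ON livers. *Ddit4*, an inhibitor of Tor, read 11.75, 12.36 and 8.67 in hSRY-ON against 8.03, 9.01 and 8.79 in hSRY-OFF, so that replicate 3 lay among the controls, and its difference of 2.32 ± 0.88 did not pass (adjusted p = 0.0791). *Fgf21*, a liver hormone of the fasted state, gave 0.57 (adjusted p = 0.369). *Gdf15*, a stress-induced circulating factor, passed with a difference of 1.48 (adjusted p = 0.04), although hSRY-ON replicate 2 lay within the range of the controls.

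The serine, glycine and one-carbon route was mostly lower around the raised *Psat1*, with 9 of 16 tested probes lower (56.2%, against 17.3% of all probes), 2 higher (12.5%, against 15.8%) and a median of -0.70. The probes called higher belonged to the mitochondrial enzymes *Mthfd2*, by 1.39 ± 0.27 (adjusted p = 0.00813), and *Shmt2*, by 0.93 ± 0.14 (adjusted p = 0.00342), although a second *Shmt2* probe gave 0.08 (adjusted p = 0.757). Their cytosolic counterpart *Shmt1* was lower with a difference of -1.18 ± 0.13 (adjusted p = 0.00077), as was the folate enzyme *Mthfd1* (-0.76). Also lower were *Gldc* of the mitochondrial glycine cleavage system, with -0.93 (adjusted p = 0.00249) and -0.64, *Cbs* of the transsulfuration route, *Aldh1l1* and *Srr*. *Psph*, the last enzyme of serine synthesis, was detected on no array. In the related group of asparagine, glutamine and glutamate enzymes, 2 of 6 probes were higher (33.3%) and 3 lower (50%), with a median of -0.14: *Aspg*, an asparaginase, gave 1.60 (adjusted p = 0.019) and the transaminase *Gpt2* 1.15 (adjusted p = 0.0342), whereas glutaminase *Gls2* gave -1.14 (adjusted p = 0.013) and *Got2* -0.36 (adjusted p = 0.0463).

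**Figure D3:**
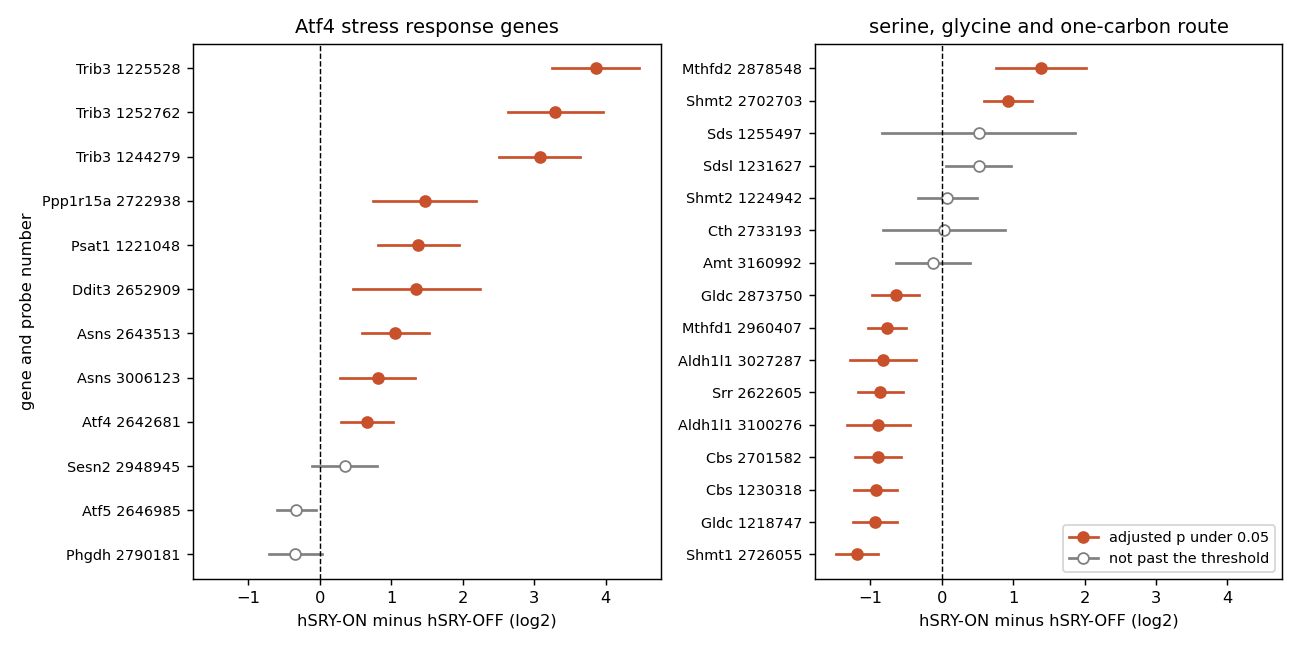
Fitted difference, hSRY-ON minus hSRY-OFF (log2, horizontal axis), with its 95% interval for the 12 tested member probes (left) and the 16 tested probes of the serine, glycine and one-carbon route (right). Filled orange points passed an adjusted p of 0.05 and open grey points did not. On the left 9 probes passed, all as higher, while on the right 9 passed as lower and 2 as higher.

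Of the sestrins, the *Akt* genes and genes that restrain, form or activate Tor, 3 of 13 tested probes were higher (23.1%, against 15.8% of all probes) and 0 were lower, with a median of 0.41. At an unadjusted p under 0.05 by limma, 2 probes were lower, and *Deptor* gave -0.87 (adjusted p = 0.056). *Nprl3*, a subunit of the GATOR1 complex that inhibits Tor, was higher by 0.72 (adjusted p = 0.00303), as were *Rragc* by 0.58 (adjusted p = 0.0121) and *Rheb* by 0.49, which serve Tor activation. *Sesn1* gave 0.90 and 0.93 without passing, its values led by hSRY-ON replicate 2, and *Sesn3*, *Akt1* and *Akt2*, the last being binding partners of Trib3, were detected on no array.

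Endoplasmic reticulum chaperones and their partners, targets of the Atf6 and Xbp1 arms, were more often lower than higher: 2 of 19 tested probes were higher (10.5%, against 15.8% of all probes), 6 were lower (31.6%, against 17.3%) and the median was -0.41. Both probes called higher belonged to *Herpud1*, by 0.84 (adjusted p = 0.0303) and 0.69, and this gene is also an Atf4 target. The probes called lower were those of *Sec61b*, with -1.45 (adjusted p = 0.00222) and -1.26, *Calr*, with -0.91 (adjusted p = 0.0169), *Pdia4*, *P4hb* and *Pdia3*. *Xbp1* gave -0.17 (adjusted p = 0.396) and *Dnajb9*, a target of spliced Xbp1, 0.17 (adjusted p = 0.645). *Hspa5*, the most widely used marker of this stress, was detected on no array, so its level is not known here.

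As several members also respond to p53, 20 probes of p53 targets outside the members were listed, of which 11 were higher (55%, against 15.8% of all probes) and 2 lower (10%, against 17.3%), with a median of 0.70. *Cdkn1a*, the cell cycle inhibitor, was higher by 1.89 (adjusted p = 0.000698), *Trp53inp1* by 1.45 (adjusted p = 0.0331) and *Bax* by 0.70. *Fas*, a death receptor and also a p53 target, was lower at both tested probes, with -1.72 (adjusted p = 0.000276) and -1.64. Over all 8 lists, 40 of 128 tested probes were higher (31.2%) and 24 lower (18.8%), with a median of 0.20, where some genes stand on more than 1 list. These lists are described by counts beside the shares of the whole table, and no test compares them with it.

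**Figure D4:**
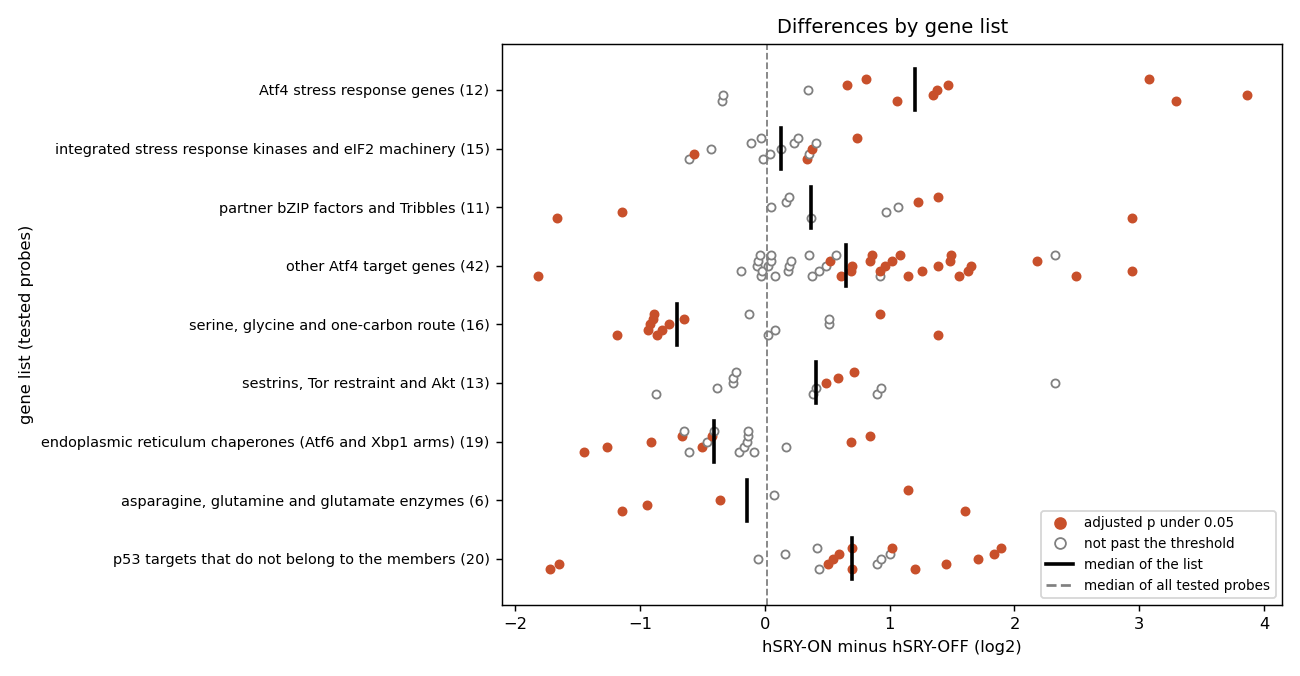
Fitted difference, hSRY-ON minus hSRY-OFF (log2, horizontal axis), of each tested probe of the members and of the 8 lists, with the number of tested probes in parentheses. Filled orange points passed an adjusted p of 0.05, black bars are list medians and the dashed line is the median of all tested probes, 0.02. The members have a median of 1.20, other Atf4 targets 0.65, chaperones -0.41 and the serine, glycine and one-carbon route -0.70.

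Summed markers of hepatocytes, stellate cells, macrophages and T and B cells differed between the groups without overlap. Those of erythroid cells, neutrophils, endothelial and biliary cells overlapped. The part of cell types in the values above was not tested. All 6 hepatocyte markers were detected on all arrays, and their summed normalized intensity was 103380 to 105776 in hSRY-OFF and 89552 to 94837 in hSRY-ON, with 4 of 7 probes lower. Stellate markers were 9237 to 10564 in hSRY-OFF against 14127 to 15732 in hSRY-ON (5 of 8 probes higher, 2 lower, *Col1a2* not detected). Macrophage markers were 6073 to 8266 against 4075 to 5260 (1 of 9 probes higher, 4 lower, *Cd5l* not detected), and T and B cell markers 865 to 921 against 218 to 436 (4 of 4 probes lower, *Ms4a1* not detected). Erythroid markers were 63262 to 80854 against 79094 to 91281 (1 of 5 probes higher, *Epb42* not detected), and neutrophil markers 44395 to 51117 against 28928 to 86386, with none of 9 probes passing by limma (1 at an unadjusted p under 0.05) and hSRY-ON replicate 3 the highest, the liver in which *Atf3* and *Nupr1* were also highest. Endothelial markers were 3337 to 4304 against 3866 to 4782 (3 of 7 probes higher, *Kdr* not detected), and biliary markers 175 to 223 against 166 to 214 (1 probe tested, with an unadjusted p above 0.05, and *Krt19* and *Sox9* not detected).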

How the data were processed

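RNA from 3 hSRY-ON and 3 hSRY-OFF livers was profiled on Illumina MouseRef-8 v2.0 BeadChips. The table deposited by the authors held, per array, mean bead intensity on a linear scale, not normalized (lowest 108), and the deposited detection p-value. Scanner settings and the genome build of the probes are not given in the sources used here. The study names TCC, a package for counts, which was not applied to intensities. Background was removed with normexp from the detection p-values (limma 3.58.1, nec, offset 16, R 4.3.3), and values were quantile-normalized and log2-transformed, where the offset shrinks differences of dim probes. Probes with detection p under 0.01 on at least 3 of 6 arrays (10734) were fitted with lmFit and eBayes without covariates. Tests were two-sided, with Benjamini-Hochberg adjustment over all tested probes and a threshold of 0.05. A probe undetected in a whole group is given as "at least N-fold", the other group's mean over the higher of each array's lowest detected signal and the probe's own. Of 18138 symbols, 14307 were current in RefSeq GRCm38.p6, 2927 matched by an older name and 904 did not match. Members and lists were chosen with earlier results of these data known. Named were all members, the 2 largest rises and falls called in each list, the 5 closest to Trib3 and a set of genes of central role whatever their values; other names were chosen after their values were seen. The fit was run on simulated data with the same spread for every probe in both groups, a setting that these livers do not share. Alternatives covered background, offset, scaling, filter, threshold, variance trend, array weights, replicate block, 1 probe per symbol and each array left out.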

Additional observations from a re-analysis of the deposited data

How the results depend on the processing

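The number of member probes called higher was 9. It was 5 at an adjusted p of 0.01 and between 5 and 8 when 1 array was left out. Without hSRY-OFF replicate 1 it was 5, the 3 Trib3 probes, the first Asns probe and Psat1. The number called lower was 0 and became 1, Atf5, with no background correction, with normexp without detection p, with an offset of 50, with median scaling and with limma's variance trend, and 2, Atf5 and Phgdh, with array weights, and it was 0 in each fit that left out 1 array. Over all probes 3554 were called. This became 1665 at an adjusted p of 0.01, and ranged from 1821 to 3947 when 1 array was left out. In the wider lists 64 calls became 31 at 0.01 and ranged from 35 to 64. Same-numbered arrays of the groups deviated together weakly (r = 0.025, 0.095 and 0.052), so the numbers were not taken to pair livers. With the replicate block 8 member probes were higher, the second Asns probe being lost (adjusted p = 0.0659), and 3210 probes were called in all. Counting only probes detected on all 6 arrays, an alternative chosen after seeing the data, gave 7. No member changed sign under any alternative. With 3 livers per group, their number limits precision. The third Trib3 probe could not be tested without an hSRY-ON array, because only those arrays detected it.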
